A study of Glycine max with 24 samples.

Results

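The comparison described here is the effect of added magnesium (Mg) on transcripts of the soybean cultivar Young after 72 h of aluminium (Al). By the titles of the arrays, 6 of the 24 in the series belonged to it, 3 from roots that received Al plus Mg and 3 from roots that received Al only. Of the 61170 probe sets on the Affymetrix soybean array, the 37593 designed for soybean, with IDs starting in Gma, were tested.

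The series is on soybean (Glycine max) root tips of 1 cm, from plants in hydroponic culture, and measured transcript abundance as 1 fluorescence intensity per probe set and array. Both groups were the genotype Young, both had received 10 µM Al, and both were harvested at 72 h. They differed in whether Mg had been added, at a dose that the labels do not state. The groups used beside them were Young at 12 h with Al alone or with Al plus Mg, and the genotype PI 416937, called PI below, at 72 h with the same treatments, each with 3 arrays. No roots without Al were among the groups, so the comparison concerns Mg in roots that all received Al. Titles for Al alone carry an unexplained final c. The labels call Young tolerant and PI sensitive to Al, whereas PI 416937 is elsewhere known as an Al-tolerant line, so no weight is put on these words here.

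Al ions injure root tips in acid soils: they bind to cell walls and membranes, stop elongation, raise reactive oxygen species and start the production of callose, defence proteins and phenolic compounds. Plants answer Al by releasing organic acids such as citrate and malate that bind the metal outside the root, a response that in Arabidopsis depends on the zinc finger factor STOP1. Mg is a cofactor of many enzymes and transporters and is known to relieve Al toxicity in legume roots at low doses.

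The arrays of a group were alike. Correlations were taken over the 33117 tested probe sets whose mean exceeded the 95th percentile of means of probe sets for other organisms. Arrays with Al alone correlated at r = 0.984 to 0.989, arrays with Mg at 0.993 to 0.994, and arrays of different groups at 0.91 to 0.94. Between 79% and 81.3% of probe sets lay above the bound of their array, the 99th percentile of probe sets for other organisms. Root markers were here phosphate, nitrate, ammonium and water transporters and wall proteins of roots. Of these, 0 of 7 genes lay at background on all 6 arrays, whereas 11 of 11 seed genes did. For P450, actin and glutathione transferase, control probe sets along the same transcript showed a steeper 3′ to 5′ slope with Mg. For the P450 control the log2 ratio of 3′ to 5′ signal averaged 2.26 ± 0.37 in the group with Al alone and 3.80 ± 0.16 in the group with Mg (SD, n = 3 arrays each). The ratios were 7.88 ± 0.20 and 8.41 ± 0.04 for actin and 1.73 ± 0.23 and 3.06 ± 0.03 for glutathione transferase. The dim controls ubiquitin, at 0.10 and 0.11, and sucrose binding protein, at −0.10 and −0.12, did not show it. The 3′ signal of the glutathione transferase control was itself lower with Mg, at 12.36 against 13.72. Ratios of 3′ to middle signal were closer, at 1.37 and 1.55 for P450, 1.62 and 1.52 for actin and 1.13 and 1.18 for glutathione transferase. The part of this slope in the results below was not tested.

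Mg was followed by a change in a large share of the soybean transcriptome of Young root tips at 72 h. Of the 37593 probe sets, 14788 passed (39.3%), 8679 of them higher with Mg (23.1%) and 6109 lower (16.3%), at a Benjamini-Hochberg adjusted p under 0.05 in limma. In bulk tissue, fewer cells of a type and less RNA per cell cannot be told apart. The falls were the larger changes. With a limit of 2-fold added, 5726 probe sets remained (15.2%), 2366 higher (6.29%) and 3360 lower (8.94%), and single differences ran from −12.83 to 4.07 on the log2 scale around a median of 0.03. The arrays of the groups did not overlap for 20396 probe sets (54.3%), of which 12933 were higher (34.4%) and 7463 lower (19.9%). Of all tested, 415 probe sets (1.1%) were at background on all arrays with Mg and above it on all arrays with Al alone, against 60 (0.16%) the other way round, and 6019 (16%) were at background on all 6. The counts without overlap took in probe sets at background. The log2 bounds were 2.738 to 2.775 on arrays with Al alone and 2.796 to 2.904 on arrays with Mg. The part of this shift in the counts was not tested. Among the 1109 genes that had a name, 304 fell and 261 rose, and 214 and 73 of these did so by at least 2-fold. The list counts below stand beside the shares over all tested probe sets, 23.1% higher and 16.3% lower.

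**Figure D1:**
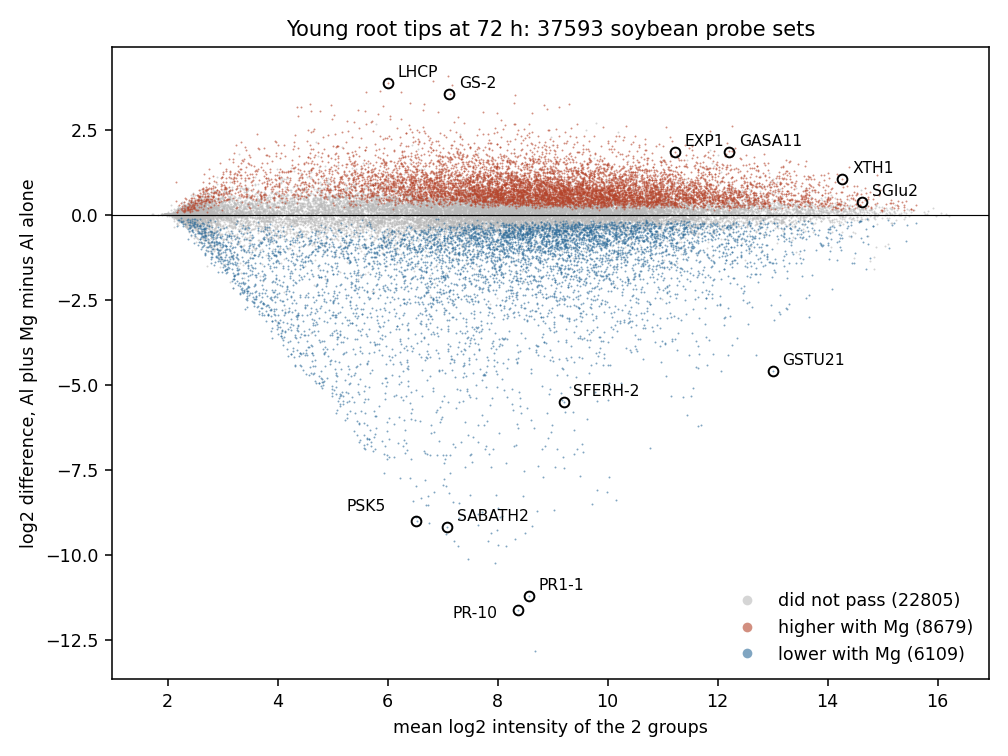
The log2 difference between Al plus Mg and Al alone (y axis) is plotted against the mean log2 intensity of the groups (x axis) for the 37593 soybean probe sets of Young at 72 h, with 1 point per probe set and selected genes circled. Falls reach −12.83 and rises 4.07, and PR-10 and PR1-1 stand among the largest falls.

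Pathogenesis-related proteins gave the largest named falls. PR-10, an intracellular pathogenesis-related protein, had log2 intensities of 13.91, 14.46 and 14.21 on the arrays with Al alone and 2.85, 2.43 and 2.40 with Mg. The gene was thus among the brightest with Al alone and next to background with Mg, and the groups were far apart. Since 2 of the 3 arrays with Mg were at background, its log2 difference was −11.34 or lower (limma adjusted p = 2.88e-12). PR1-1, a secreted pathogenesis-related protein, stood at 13.26, 14.88 and 14.41 with Al alone and at 2.67, 3.72 and 2.53 with Mg. All 3 arrays with Mg were again far lower, 2 of them at background, and the difference was −11.04 or lower (adjusted p = 4e-08). PR1-7, of the same family, had values of 10.58, 11.12 and 10.66 against 2.41, 2.41 and 2.48, at least 247.1-fold lower because every array with Mg was at background (adjusted p = 3.97e-05). A fall of the same kind, and larger, belonged to a probe set that no gene in the name table matched and that was picked out after its values were seen. It read 14.79, 15.2 and 15.32 with Al alone and 2.29, 2.22 and 2.32 with Mg.

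Of the 11 pathogenesis-related proteins 9 fell, all 9 by at least 2-fold, and 1 rose, with a median log2 difference of −4.11 where all tested probe sets had 0.03. The chitinase genes chib1-a and CHIA1, whose products cut fungal walls, had differences of −5.39 and −4.26, and the osmotin-like proteins OLPa and OLPb −4.11 and −1.32. SGlu2, a beta-1,3-glucanase, was the member that rose. It had 14.34, 14.45 and 14.52 with Al alone and 14.80, 14.86 and 14.79 with Mg, a small rise of 0.38 ± 0.06 (SE, adjusted p = 7.94e-05) between groups that did not overlap. Among 17 genes of immune signalling 6 fell and 2 rose. The rises numbered 1 without Al-alone array 2 or without any single array with Mg, and none without Al-alone array 3. EDS1-2, a lipase-like protein that relays signals of resistance receptors, went from 13.11, 13.67 and 13.35 to 11.17, 11.30 and 11.52, or 4.12-fold down (adjusted p = 2.32e-07). NDR1b, a membrane protein of the same defence pathways, fell by 3.2 (adjusted p = 4.88e-05). In neither gene did the groups overlap.

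**Figure D2:**
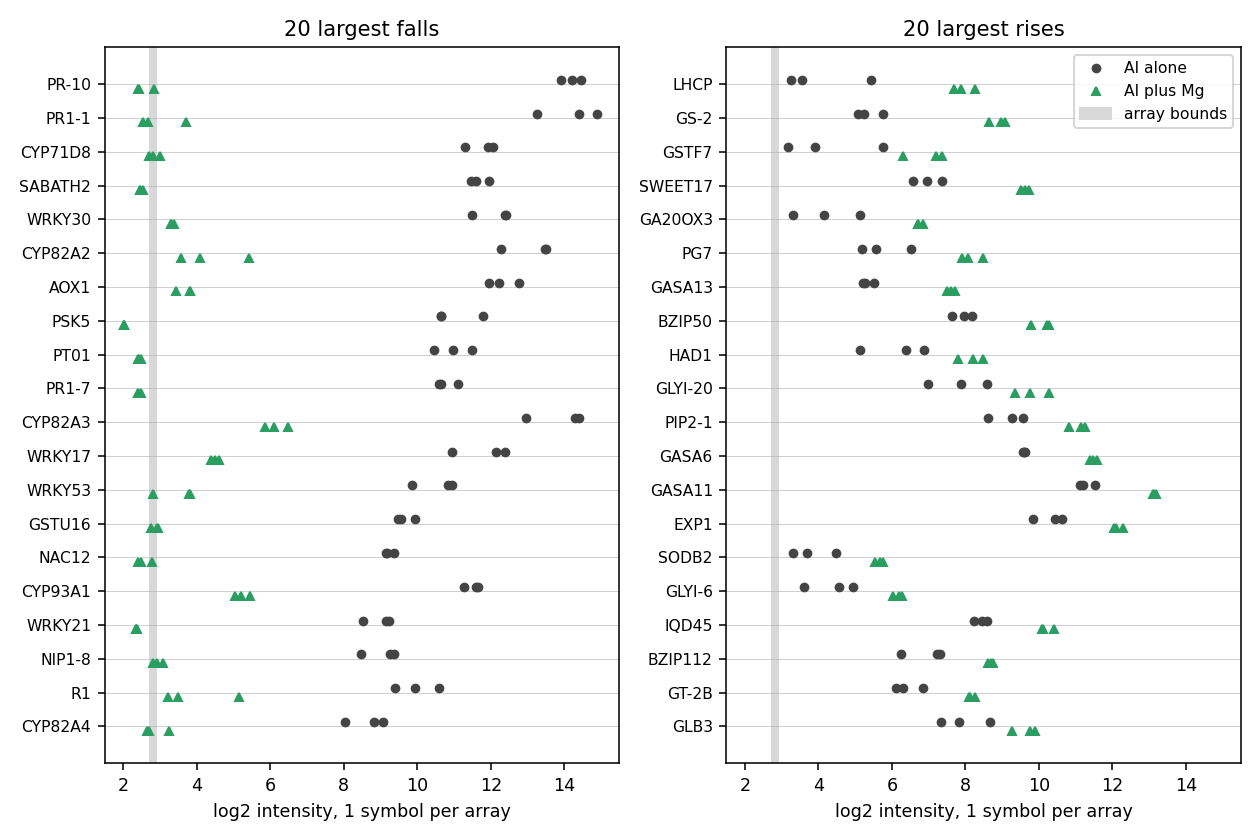
Log2 intensity (x axis) on each array with Al alone (circles) and Al plus Mg (triangles) is shown for the 20 largest falls (left) and rises (right) among named genes in Young at 72 h, with the bounds of the 6 arrays in grey. PR-10 goes from between 13.91 and 14.46 to the bounds, while rises such as GS-2 lie within the range of measured signal on both sides.

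Enzymes of the glyceollin pathway were in the same company. Glyceollins are the pterocarpan phytoalexins of soybean, made from isoflavones. PT01, a prenyltransferase, had 10.96, 11.50 and 10.46 with Al alone and 2.49, 2.39 and 2.42 with Mg, at least 280.7-fold lower (adjusted p = 5.37e-10). CYP93A1, the P450 that hydroxylates the pterocarpan skeleton, had 11.28, 11.64 and 11.60 against 5.04, 5.20 and 5.45 and fell by 6.28 ± 0.43 (SE, adjusted p = 8.29e-09). G4DT, a prenyltransferase of glyceollin synthesis, had 11.75, 12.84 and 13.01 against 9.38, 7.35 and 8.87, a fall of 4.0 (adjusted p = 0.000181). The arrays with Mg were the lower ones throughout in these 3 genes, and those of CYP93A1 were still well above background. In the list of 49 phenylpropanoid and isoflavonoid enzymes 18 fell and 1 rose, and the single rise did not pass without Al-alone array 2 or without array 3 with Mg. The list's median of −0.23 was far smaller than these genes' differences, since 30 members did not pass. CHS1, a chalcone synthase at the entry of the flavonoid branch, had 11.01, 13.23 and 13.89 against 10.01, 9.67 and 9.48. Its fall of 2.99 (adjusted p = 0.0024) did not pass when the 6 arrays alone were fitted with the replicate number as a block.

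Other cytochromes P450, haem enzymes that oxidise many plant compounds, split by gene. Of 21 members 9 fell, all by at least 2-fold, and 7 rose, or 4 without Al-alone array 2 and 4 without array 3 with Mg. CYP71D8 went from 11.29, 12.06 and 11.93 to 3.01, 2.69 and 2.81, with 2 of the arrays with Mg at background and a difference of −8.86 or lower (adjusted p = 1.81e-10). CYP82A2 went from 12.29, 13.49 and 13.47 to 4.09, 3.57 and 5.41 (−8.73 ± 0.68, SE, adjusted p = 3.57e-08), and CYP82A3 from 12.97, 14.29 and 14.39 to 6.48, 6.11 and 5.86 (−7.73 ± 0.51, adjusted p = 5.70e-09). Array 1 was the lowest of the arrays with Al alone in all 3 genes, and the groups did not overlap. The risers were smaller in size. CYP74A1, of the P450 subfamily of allene oxide synthases, had 9.81, 9.42 and 9.58 against 11.05, 11.32 and 10.93, a rise of 1.5 (adjusted p = 1.20e-05), and CYP97C10, of the subfamily of carotenoid hydroxylases, rose by 1.03.

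SABATH2, a member of the methyltransferase family that makes methyl esters of plant hormones and other acids, was measured at 11.46, 11.96 and 11.61 with Al alone and at 2.45, 2.45 and 2.54 with Mg. All arrays with Mg were at background, which gave a fall of at least 458-fold (adjusted p = 9.19e-10). The list of jasmonate synthesis and signalling moved less: 5 of 20 genes fell (25%, beside 16.3% over all tested probe sets) and none rose. The falls numbered 3 without Al-alone array 1, and 1 or 2 rises appeared without array 1 with Mg and without Al-alone array 3. CYP74A1, of the allene oxide synthase subfamily, was counted above with the other P450s, outside this list, and rose. AOC2, an allene oxide cyclase of jasmonate synthesis, had 10.72, 11.38 and 10.72 against 7.73, 7.93 and 7.89 and fell by 3.09 (adjusted p = 2.87e-06). JAZ1, a repressor of jasmonate responses that jasmonate itself induces, fell by 2.25 (adjusted p = 1.96e-05), and AOS2, another allene oxide synthase, by 1.68 (adjusted p = 0.00285). Of the 4 ethylene genes none passed in limma. ETR2, an ethylene receptor, read 9.95, 11.06 and 10.86 with Al alone and 11.19, 10.52 and 10.86 with Mg, with overlapping groups (0.23 ± 0.29, adjusted p = 0.607).

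WRKY and NAC factors were mostly lower. Among 53 WRKY factors, zinc finger proteins that bind the W-box of defence genes, 32 fell and 3 rose, with 26 falls and no rise of 2-fold or more and a median of −0.89. WRKY30 had 11.49, 12.39 and 12.41 with Al alone and 3.31, 3.31 and 3.38 with Mg, a fall of 8.76 ± 1.11 (SE, adjusted p = 7.61e-06) that left it just above background. WRKY17 went from 10.94, 12.39 and 12.13 to 4.38, 4.50 and 4.61 (−7.32 ± 0.62, adjusted p = 1.02e-07), and WRKY21 from 8.52, 9.15 and 9.22 to 2.34, 2.34 and 2.38, at least 69.71-fold lower (adjusted p = 2.52e-15). Again array 1 was the lowest of the arrays with Al alone, and no value of the groups crossed. The 3 WRKY factors that rose, WRKY7, WRKY35 and WRKY9, did so by 0.47, 0.43 and 0.43, and WRKY9 did not pass without Al-alone array 1 or 3.

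NAC factors, many of which act in senescence and stress, fell in 17 of 20 genes, 15 of them by at least 2-fold, and none rose. Their median of −2.17 was the second lowest of the lists with 6 or more genes. NAC12 had 9.16, 9.37 and 9.17 against 2.41, 2.78 and 2.48, at least 84.08-fold lower (adjusted p = 1.19e-06). NAC018 had 12.37, 13.24 and 13.48 against 9.45, 9.16 and 9.29 and was 13.3-fold lower (adjusted p = 2.30e-07). NAC34, NAC109 and NAC19 did not pass, at 0.52, −0.73 and −0.80. Of 69 MYB factors 18 fell (26.1%) and 9 rose (13%), with a median of −0.01. MYB76 had 5.96, 8.30 and 7.80 with Al alone and lay at background on every array with Mg, at least 22.85-fold lower (adjusted p = 5.23e-07), while MYB51 rose by 1.03 and MYB143 by 0.91. Of 13 AP2/ERF factors 5 fell and 1 rose. DREB2A2, of the family that binds dehydration-responsive elements, had 7.97, 8.81 and 9.14 against 5.62, 4.89 and 4.93 and fell by 3.49 (adjusted p = 0.000125). SCOF-1, a cold-inducible zinc finger protein of soybean, fell by 3.07 (adjusted p = 2.26e-06).

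Of 64 bZIP factors 14 were higher and 14 lower, 21.9% each way beside 23.1% higher and 16.3% lower over all tested probe sets. The lower count was 6 without Al-alone array 2 and 9 without array 2 or array 3 with Mg. BZIP50 was among the 20 largest rises of all named genes, at 7.96, 7.64 and 8.17 with Al alone and 10.27, 9.79 and 10.22 with Mg (2.17 ± 0.22, adjusted p = 6.29e-07). GT-2B and GT-2A, trihelix factors, moved in opposite directions: GT-2B rose from 6.29, 6.12 and 6.85 to 8.11, 8.12 and 8.26 (adjusted p = 5.44e-07) and GT-2A fell from 8.08, 8.26 and 8.18 to 6.82, 6.79 and 6.51 (adjusted p = 1.98e-06). Both genes had groups without overlap. WRI1B, related to the Arabidopsis regulator of oil synthesis WRI1, rose by 1.66 (adjusted p = 1.92e-06).

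**Figure D3:**
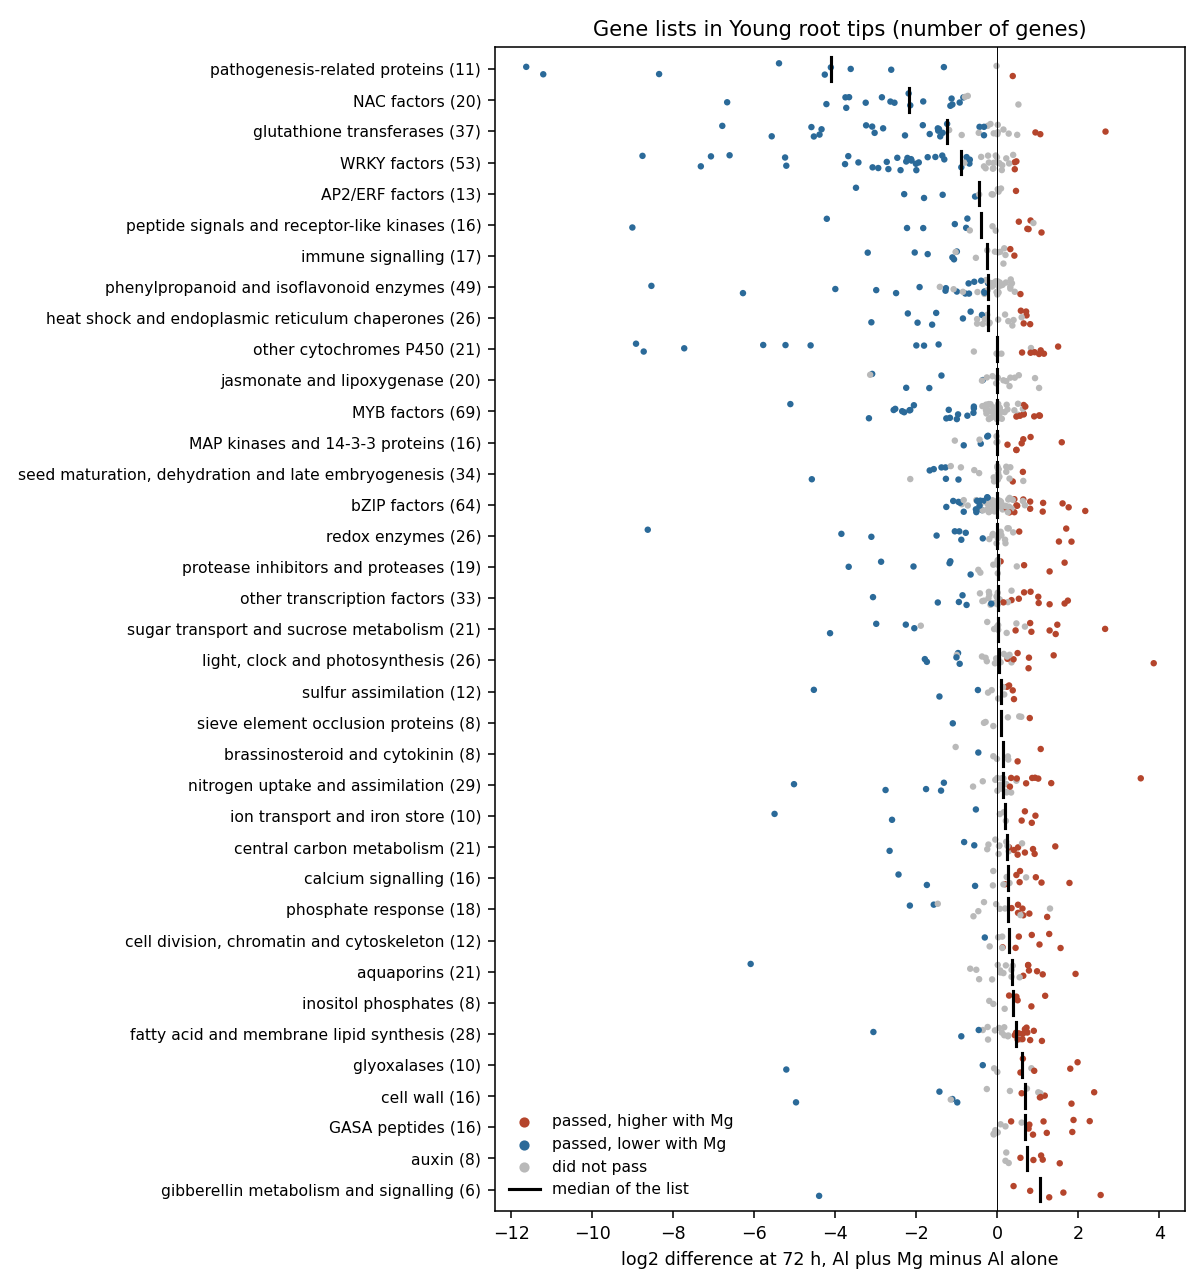
The log2 difference at 72 h in Young (x axis) is shown for the members of each gene list with 6 or more genes, 1 point per gene, coloured by whether it passed higher, passed lower or did not pass, with the list's median as a bar. Pathogenesis-related proteins have the lowest median, −4.11, and gibberellin genes the highest, 1.05.

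Glutathione transferases join glutathione to toxic molecules, and 22 of 37 fell, 19 by at least 2-fold, while 3 rose, or 1 without Al-alone array 2. Their median was −1.24. GSTU21 had 15.19, 15.38 and 15.34 with Al alone, near the top of the array's range, and 10.66, 10.54 and 10.92 with Mg, 24.1-fold lower (adjusted p = 5.70e-09). GSTU43 had 7.86, 7.68 and 8.24 against background on all arrays with Mg, at least 34.03-fold lower (adjusted p = 2.47e-11). The replicates were tight in both genes. GSTF7 was higher at 6.31, 7.35 and 7.2 with Mg against 5.76, 3.18 and 3.90, but its rise of 2.67 (adjusted p = 0.0177) no longer passed without array 2 or 3 with Mg, without Al-alone array 2 or 3, or in the blocked fit of the 6 arrays.

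AOX1, the alternative oxidase that lets mitochondrial electrons bypass part of the respiratory chain, fell from 11.95, 12.23 and 12.77 to 3.81, 3.43 and 3.82. It was 396-fold lower (adjusted p = 3.80e-08), and AOX2, of the same family, fell by 1.5 (adjusted p = 1.68e-05). Of 26 redox enzymes 9 fell and 4 rose, the rises being 2 without array 3 with Mg or without Al-alone array 1. The peroxidase Ep fell by 3.11 (adjusted p = 3.32e-07) and the germin-like protein GER2 by 3.85 (adjusted p = 0.00549). Heat shock proteins and factors and chaperones of the endoplasmic reticulum stood at 8 lower and 5 higher of 26, with 2 higher without Al-alone array 2 and 3 without array 1 with Mg. All 8 lower ones were heat shock proteins or heat shock factors. The heat shock factor HSF, however, was among the 5 higher ones and passed under 12 of 15 alternatives. HSF-01 had 12.38, 12.58 and 11.87 against 9.36, 9.21 and 8.93 (−3.11 ± 0.35, adjusted p = 1.86e-06), and HSP90A1 fell by 1.97 (adjusted p = 0.000122). PDIL-2, a protein disulphide isomerase of the endoplasmic reticulum, had 12.03, 11.77 and 12.03 against 12.76, 12.54 and 12.69 and rose by 0.72 (adjusted p = 0.000169).

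Glyoxalases, which remove methylglyoxal, leaned the other way, with 5 of 10 higher and 2 lower. GLXI had 10.43, 10.09 and 10.47 with Al alone and 11.20, 11.23 and 11.30 with Mg (0.91 ± 0.13, adjusted p = 2.45e-05). GLYI-19 was the exception in size at 11.03, 11.13 and 10.84 against 6.04, 5.28 and 6.03, a fall of 5.21 (adjusted p = 3.80e-07). The other lower member, GLYI-23, had an adjusted p of 0.0485 and passed under 3 of 15 alternatives; it was lost without any single array other than Al-alone array 3, and the lower count was then 1.

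Peptide signals and receptor-like kinases moved both ways. Of 16 genes 7 fell, 5 rose and 4 did not pass. PSK5, a precursor of phytosulfokine, a sulphated peptide that promotes growth and modulates immunity, had 10.66, 11.78 and 10.65 with Al alone and 2.02, 2.02 and 2.03 with Mg, at least 292.3-fold lower (adjusted p = 5.83e-09). CRK39, a cysteine-rich receptor-like kinase, had 12.13, 12.58 and 11.41 against 7.30, 7.27 and 8.94 and was 18.4-fold lower (adjusted p = 9.74e-05). CRK84, CRK11 and CRK5, of the same kinase family, also fell, by 2.23, 1.05 and 0.74. The somatic embryogenesis receptor kinase SERK1 was among the members that rose, by 0.53, and the kinase RLK2 rose by 0.74 (adjusted p = 5.44e-05).

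Among hormone genes rises were frequent in the gibberellin list. All 6 genes of gibberellin metabolism and signalling passed, 5 of them higher. GA20OX3, a gibberellin 20-oxidase that makes the precursors of active gibberellin, had 5.13, 3.32 and 4.16 with Al alone and 6.84, 6.72 and 6.71 with Mg, 5.86-fold up (adjusted p = 4.74e-05). The arrays with Al alone were spread and all lay below the tight values with Mg. GAI2, named for the DELLA repressor of Arabidopsis, had 9.07, 8.61 and 8.68 against 10.02, 10.11 and 10.07 and rose by 1.28 (adjusted p = 4.10e-06). Of the gibberellin 2-oxidases, which inactivate the hormone, GA2OX6 rose by 1.63 (adjusted p = 0.0109), and GA2OX8 fell from 6.95, 8.43 and 8.08 to 3.40, 3.51 and 3.35 (adjusted p = 1.03e-06). GASA peptides, small cysteine-rich proteins first known as products of gibberellin-stimulated genes, rose in 9 of 16 cases and fell in none. One of the 9, GASA9, was at background on 5 of the 6 arrays. GASA13 had 5.26, 5.51 and 5.22 against 7.50, 7.60 and 7.72, 4.85-fold up (adjusted p = 4.77e-06). GASA11, a far brighter gene, had 11.21, 11.12 and 11.53 against 13.19, 13.13 and 13.11 (1.85 ± 0.29, adjusted p = 5.61e-05). GASA6 behaved alike at 9.62, 9.57 and 9.59 against 11.40, 11.57 and 11.46 (adjusted p = 8.43e-05), and the replicates of these peptides were within 0.5 log2 units of each other.

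Auxin genes rose in 5 of 8 cases and fell in none. ADR11, a gene first described as repressed by auxin in soybean hypocotyls, had 12.78, 12.25 and 12.56 with Al alone and 14.06, 14.05 and 14.08 with Mg, 2.9-fold up (adjusted p = 1.88e-07). AUX28, an Aux/IAA repressor of auxin responses, had 7.63, 6.96 and 7.44 against 8.44, 8.48 and 8.35 (adjusted p = 9.24e-05). PIN2A, an auxin efflux carrier of the family that in Arabidopsis moves auxin away from the root tip, rose by 0.89 (adjusted p = 0.00235). In each of these 3 genes every array with Mg exceeded every array with Al alone.

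Cell wall genes moved both ways, with 6 of 16 higher, 4 lower and 6 not passing. EXP1, an expansin that loosens walls, had 10.45, 9.85 and 10.62 against 12.09, 12.03 and 12.28, 3.55-fold up (adjusted p = 9.55e-07). XTH1, a xyloglucan endotransglucosylase, had 13.77, 13.49 and 13.97 against 14.81, 14.76 and 14.82, 2.07-fold up (adjusted p = 8.52e-07), and the endoglucanase CEL12 rose by 1.17 (adjusted p = 5.36e-07). These genes and the polygalacturonase PG7, up by 2.39 (adjusted p = 1.56e-05), act on existing wall polymers. On the lower side stood the structural proline-rich proteins PRP3 and PRP2 and the polygalacturonase inhibitors PGIP and PGIP4. PRP3 had 8.44, 7.23 and 6.05 with Al alone and background on all arrays with Mg, at least 21.14-fold lower (adjusted p = 5.05e-05). PRP2 was among the brightest genes of either group, at 15.76, 15.66 and 15.41 against 14.86, 14.72 and 14.29, and fell by 0.99 (adjusted p = 0.00418).

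Genes of cell division, chromatin and the cytoskeleton rose in 7 of 12 cases and fell in 1. TUBB3, a beta-tubulin, had 12.27, 11.86 and 12.14 against 13.35, 13.24 and 13.51, 2.42-fold up (adjusted p = 2.12e-07). CCS52, an activator of the anaphase-promoting complex known for endoreduplication, had 7.99, 7.59 and 8.21 against 9.0, 8.96 and 8.95 and rose by 1.04 (adjusted p = 0.00694). The histone H4 was the member that fell, by 0.31 (adjusted p = 0.00719). Aquaporins rose in 7 of 21 cases and fell in 1. PIP2-1, a plasma membrane water channel, had 9.58, 8.61 and 9.27 against 10.83, 11.26 and 11.15, 3.8-fold up (adjusted p = 1.40e-06), and the tonoplast channel TIP2;3 rose by 1.12 (adjusted p = 0.000169). NIP1-8, of a subfamily whose members can carry small neutral solutes, was the gene that fell, from 8.47, 9.25 and 9.36 to 2.92, 3.08 and 2.80, a difference of −6.06 or lower (adjusted p = 2.43e-09). 

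Nutrient genes gave a mixed picture. Of 29 genes of nitrogen uptake and assimilation 9 rose (31%) and 5 fell (17.2%), beside 23.1% and 16.3% over all tested probe sets. GS-2, a glutamine synthetase, was the second largest named rise, from 5.23, 5.08 and 5.76 to 8.98, 9.07 and 8.65, or 11.7-fold (adjusted p = 5.50e-07), with tight replicates on both sides. GS1-GAMMA, another glutamine synthetase, had 5.47, 6.56 and 5.92 against 2.96, 4.34 and 2.37, with 1 array with Mg at background and a difference of −2.58 or lower (adjusted p = 0.0039). SAT1, a symbiotic ammonium transport factor, fell by 1.76 (adjusted p = 4.81e-05) and the nitrate transporter NRT1-3 by 1.32 (adjusted p = 0.0101). Of 18 genes of the phosphate response 7 rose and 2 fell. The purple acid phosphatase PAP01 rose by 1.23 (adjusted p = 1.88e-06), and the phosphate transporter PHT1-8 fell from 8.53, 8.58 and 7.86 to 6.73, 7.16 and 6.37 (adjusted p = 4.18e-05). In sulfur assimilation OAS-TL2, which makes cysteine, went from 6.93, 7.99 and 7.32 to 3.06, 2.77 and 2.82, a difference of −4.49 or lower (adjusted p = 1.10e-07).

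Sugar transporters of the SWEET family, which export sugars from cells or vacuoles, moved in opposite directions. SWEET17 had 7.37, 6.58 and 6.95 with Al alone and 9.51, 9.74 and 9.61 with Mg, a rise of 2.66 ± 0.74 (SE, adjusted p = 0.00816). SWEET29 had 10.49, 10.76 and 11.13 against 6.77, 6.55 and 6.67, 17.5-fold lower (adjusted p = 2.78e-10), and SWEET34 fell by 2.99 (adjusted p = 1.09e-07). No groups overlapped in these genes. The cell wall invertase CWINV, which splits sucrose outside the cell, rose by 1.44 (adjusted p = 4.26e-05), and its inhibitor CIF1 had 8.08, 7.55 and 6.90 against 5.0, 5.21 and 5.53 and fell by 2.26 (adjusted p = 0.00137). In all, 7 of 21 genes of sugar transport and sucrose metabolism rose (33.3%) and 4 fell (19%), beside 23.1% and 16.3% over all tested probe sets. Of 21 genes of central carbon metabolism 8 rose and 3 fell, among the last G6PDH, which supplies NADPH through the pentose phosphate pathway, by 0.82 (adjusted p = 5.49e-06).

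Ion transporters and iron stores were 4 higher and 3 lower of 10. SFERH-2, a ferritin that stores iron in plastids, had 12.00, 11.93 and 11.93 with Al alone and 6.14, 5.97 and 7.24 with Mg, 45.4-fold lower (adjusted p = 8.11e-07). SFERH-4, another ferritin, had the opposite sign and a small size, 0.60 (adjusted p = 0.000697). It did not pass when the 6 arrays were fitted alone, with or without the block. The Ca2+-ATPases, pumps that remove calcium from the cytosol, were likewise divided: SCA1 fell from 10.72, 12.45 and 12.38 to 9.25, 9.17 and 9.35 (adjusted p = 0.000439) and SCA2 rose by 0.68 (adjusted p = 0.000306). Of 16 genes of calcium signalling 7 rose, or 4 without array 3 with Mg, and 3 fell. The calmodulin-binding protein IQD45 had 8.58, 8.23 and 8.44 against 10.08, 10.40 and 10.12 (1.78 ± 0.18, adjusted p = 8.19e-07), and the divergent calmodulin SCAM-5 fell by 2.44 (adjusted p = 0.000147).

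Fatty acid and membrane lipid genes rose in 14 of 28 cases and fell in 3, or 9 and 1 without Al-alone array 2. The rises were small. FAD2-3, an oleate desaturase, had 13, 12.99 and 13.05 with Al alone and 13.93, 13.57 and 13.76 with Mg (0.74 ± 0.10, adjusted p = 1.50e-05). DGD1, which makes the galactolipid that can replace phospholipids, had 8.91, 9.24 and 9.01 against 8.33, 8.01 and 8.16 and fell by 0.89 (adjusted p = 0.00063). Among seed maturation and dehydration genes, 7 of 34 fell (20.6%) and 2 rose (5.88%), beside 16.3% and 23.1% over all tested probe sets. The rises numbered 1 without Al-alone array 2 and 1 without array 3 with Mg. GOLS, a galactinol synthase of the raffinose pathway, had 9.45, 8.90 and 9.34 against 4.11, 5.29 and 4.55 and fell by 4.58 (adjusted p = 3.82e-07). Of the inositol phosphate genes 5 of 8 rose, or 3 without Al-alone array 2, and none fell. MIPS, which makes inositol phosphate from glucose phosphate, rose by 0.84 (adjusted p = 2.85e-05).

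LHCP, a chlorophyll-binding protein of the light-harvesting antenna, was the largest named rise, at 5.43, 3.26 and 3.55 with Al alone and 8.25, 7.87 and 7.70 with Mg. It was 14.6-fold up (adjusted p = 0.000269), with array 1 the highest of both groups. Of 8 genes that mark green tissue, LHCP, CAB3 and RCA11 rose, the last 2 by 1.39 and 0.40, and none fell, or 1 without array 2 with Mg. CAB3 did not pass in a fit of the 6 arrays alone, nor RCA11 in the blocked fit. The summed intensity of the green markers was 10710 to 13120 with Al alone and 12600 to 13090 with Mg, so the sums overlapped. Of 14 nodule genes 9 were at background on all 6 arrays, and NOD33 fell by 2.18 (adjusted p = 0.00195). The summed intensity of the nodule genes was 8263 to 15060 with Al alone and 2142 to 3283 with Mg, without overlap, and its part in the results was not tested. NOD33 was the only nodule gene that passed. The other 13 did not, and the list's median log2 difference was 0.01. The summed root markers ran from 71980 to 91600 with Al alone and from 55200 to 64980 with Mg, and did not overlap. Of the 7 root markers PHT1-8 and PRP2 fell, and 5 did not pass. Sums are on the linear scale, so bright genes such as PRP2 weigh most, and they do not describe each list as a whole. Light, clock and photosynthesis genes were 7 higher (26.9%) and 5 lower (19.2%) of 26, near the 23.1% and 16.3% over all tested, with 3 lower without Al-alone array 2 or without array 3 with Mg.

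Of 3 genes with a known part in Al responses 1 passed. FRD3a, a citrate transporter of the MATE family, had 10.06, 10.24 and 9.65 with Al alone and 9.16, 9.43 and 9.16 with Mg, a fall of 0.74 ± 0.20 (SE, adjusted p = 0.00748). STOP1 had 10.51, 10.72 and 10.70 against 10.57, 10.65 and 10.56, with overlapping groups (−0.05 ± 0.11, adjusted p = 0.809). SALI5-4A, a soybean gene first described as induced by Al, was very bright at 15.45, 14.43 and 14.24 against 13.98, 14.58 and 13.67, again with overlap (−0.63 ± 0.42, adjusted p = 0.267).

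At 12 h few probe sets passed for Mg in Young, 11 of 37593 (0.0293%), 8 higher (0.0213%) and 3 lower (0.00798%). That few passed does not show that Mg had little effect at 12 h. The 72 h values were set beside the 12 h levels. The 2 Mg effects differed between the times for 13217 probe sets (35.2%), 7570 with a more positive effect at 72 h (20.1%) and 5647 with a more negative one (15%), and by at least 2-fold for 7319 (19.5%). At 12 h PR-10 averaged 11.74 ± 1.01 in the group with Al alone and 11.56 ± 0.67 in the group with Mg (SD, n = 3 arrays each), and at 72 h 14.19 ± 0.28 and 2.56 ± 0.25. It was thus bright in both treatments at the early time, and the effects differed (adjusted p = 1.09e-09), by a size that 2 arrays at background leave as a limit only. CYP93A1 stood at 8.95 ± 1.17 and 9.62 ± 0.38 at 12 h and at 11.51 ± 0.20 and 5.23 ± 0.21 at 72 h (difference of effects −6.96 ± 0.61, adjusted p = 4.55e-07). PSK5, in contrast, was dim at 12 h, at 2.48 ± 0.79 with Al alone and 4.47 ± 1.85 with Mg. Of these arrays 2 with Al alone and 1 with Mg were at background. Its higher mean with Mg at 12 h did not pass. WRKY21 and GSTU43 were at background on all 6 arrays of 12 h. These genes were above background in Young in the group with Al alone for 72 h. For the rises, GA20OX3 was at 7.45 ± 0.40 and 7.45 ± 0.33 at 12 h and at 4.20 ± 0.91 and 6.75 ± 0.07 at 72 h, so that the group with Al alone at 72 h was the low one (difference of effects 2.55 ± 0.55, adjusted p = 0.00152). EXP1 and ADR11 shared that order, with 10.31 ± 0.40 and 12.53 ± 0.27 with Al alone at 72 h against 11.63 ± 0.27 and 13.99 ± 0.25 at 12 h. GASA6 did not: its values were 8.43 ± 0.75 and 7.79 ± 0.68 at 12 h and 9.59 ± 0.02 and 11.48 ± 0.09 at 72 h, and the group with Mg at 72 h was the high one (difference of effects 2.53 ± 0.43, adjusted p = 0.00022). For LHCP and SWEET17 the effects at the 2 times were not shown to differ (adjusted p = 0.0542 and 0.73).

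**Figure D4:**
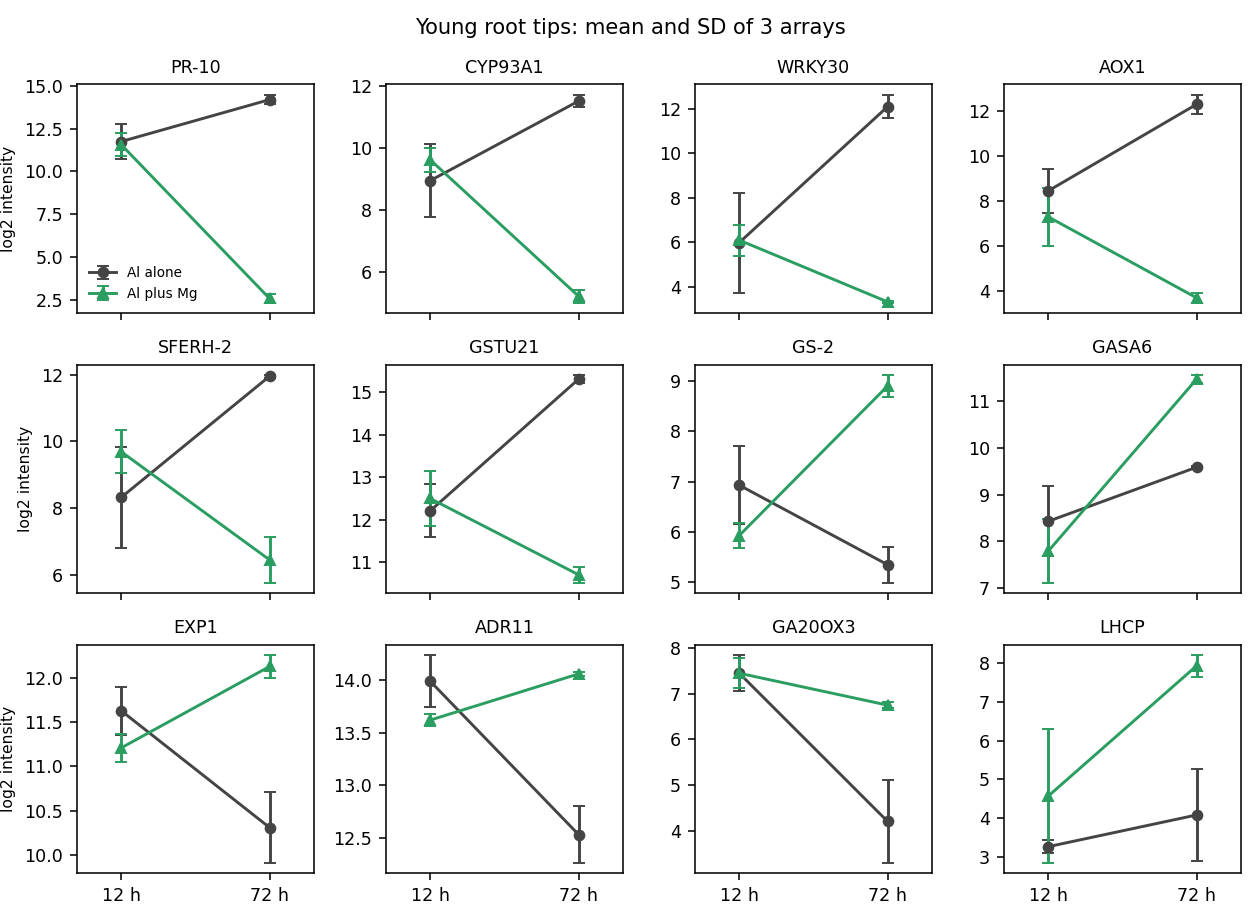
Mean log2 intensity with SD of 3 arrays (y axis) at 12 h and 72 h (x axis) is shown for 12 genes in Young roots with Al alone (circles) and Al plus Mg (triangles). At 12 h PR-10 is near 11.74 and 11.56 in the treatments, and at 72 h it is at 14.19 and 2.56.

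In PI at 72 h Mg was followed by 12685 changes (33.7%), with 4904 probe sets lower (13%) and 7781 higher (20.7%). A direct test of the difference between the genotypes found 544 probe sets (1.45%), 242 with a more positive effect in Young (0.644%) and 302 with a more negative one (0.803%). By at least 2-fold it found 321 (0.854%). The count was 301 without array 2 of Young with Mg. Among NAC factors, glutathione transferases, GASA peptides and auxin genes this test passed for 0 members. Of the genes described above for which it did not pass, 5 are given as examples. PR-10 had 14.09 ± 0.35 (SD, n = 3) in PI with Al alone and background on all arrays with Mg (limma adjusted p of the difference 0.985). The log2 difference in PI was −6.41 for CYP93A1 (adjusted p of the difference 0.967), GSTU21 −3.90 (0.511), EXP1 1.25 (0.359) and GS-2 1.94 (0.13). A p above the threshold does not show that the genotypes responded alike.

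SABATH2 had the largest fitted difference between the genotypes among named genes. In PI it stood at 3.84 ± 1.21 (SD, n = 3) with Al alone, 1 array at background, and at background with Mg, where Young with Al alone had 11.68 ± 0.26. The effects differed (adjusted p = 1.56e-05), but with groups at background in both genotypes the size was not measured. WRKY40 was at background on all 6 arrays of PI, while Young had 4.21, 4.88 and 4.40 with Al alone and background with Mg (adjusted p of the difference 2.13e-06, size limited by background). KR3, a soybean resistance gene of the nucleotide-binding receptor type, was at background on the 3 PI arrays with Al alone and on 2 of 3 with Mg. In Young it had 7.60, 8.44 and 8.19 against 6.37, 6.33 and 6.38 (adjusted p of the difference 0.00594, size limited by background). PARP3, a poly(ADP-ribose) polymerase, was at background on all arrays with Mg in both genotypes. With Al alone it had 6.44 ± 0.15 in Young and 5.10 ± 0.32 in PI (SD, n = 3; adjusted p of the difference 0.00197), so the falls are limits only.

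In the other direction the named differences ran from 0.60 to 1.19. PIB1 rose by 1.61 in Young, from 10.43, 10.16 and 10.04 to 11.74, 11.89 and 11.84, and by 0.58 in PI (difference 1.03 ± 0.16, adjusted p = 0.00237). SLR1, named for the DELLA repressor of rice, rose by 0.81 in Young and had 0.01 in PI (difference 0.79 ± 0.15, adjusted p = 0.0116). SGlu2 rose by 0.38 in Young and fell by 0.22 in PI (difference 0.60 ± 0.09, adjusted p = 0.00136). Of the 16 genes named for a genotype difference, SABATH2, WRKY40, PARP3, SGlu2 and BZIP28 passed under all 20 alternatives, and KR3, PM35, PIB1 and SLR1 under all but the fit of the compared arrays alone.

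**Figure D5:**
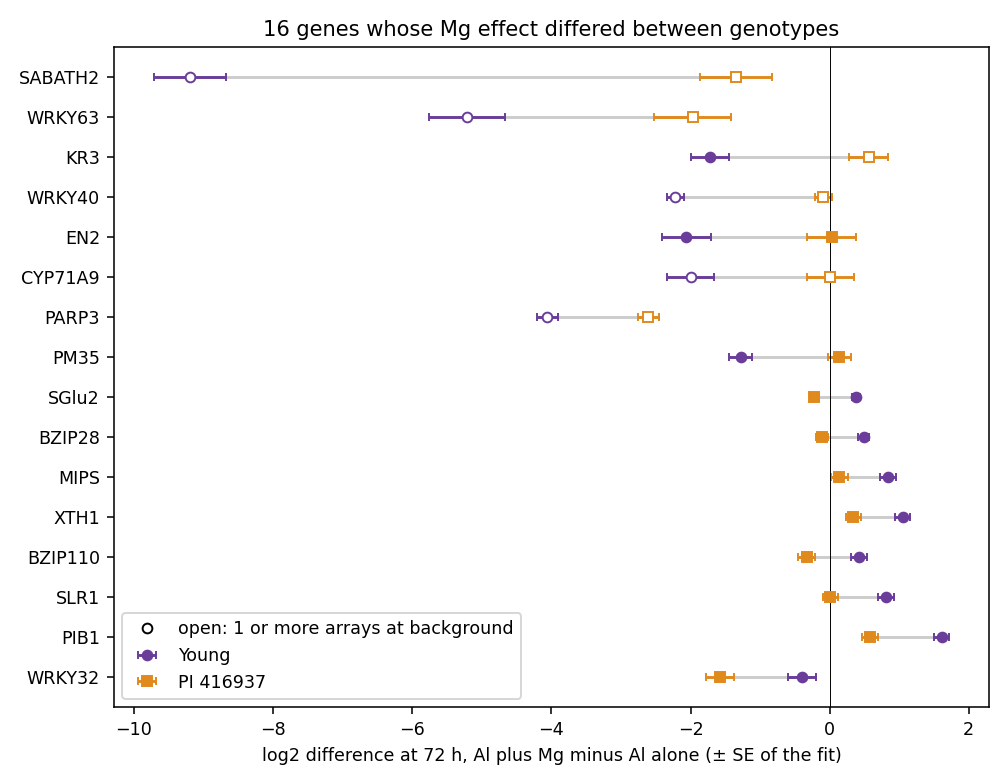
The Mg effect at 72 h as a log2 difference with its SE (x axis) is shown in Young (circles) and PI (squares) for the 16 genes named for a difference between the genotypes (y axis). Open symbols have 1 or more arrays at background and show fitted values, not measured sizes. Among filled pairs PIB1 is at 1.61 in Young and 0.58 in PI.

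Of the 20 largest falls 7 were read by probe sets whose IDs end in _s_at or _x_at, the maker's marks for probes that can match several transcripts. These were PR1-1, SABATH2, PSK5, CYP82A2, CYP82A3, CYP93A1 and CYP82A4, and the same marks were on SFERH-2, GLYI-19, PRP3, PRP2, G4DT, SGlu2, SLR1 and CCS52, so near-identical family members may share these signals. None of the 20 largest rises had such a probe set. All 20 falls and 15 of the 20 rises passed under every alternative setting. The rises that did not were GSTF7, HAD1, GLYI-20, SODB2 and GLB3. Of these SODB2, an iron superoxide dismutase, failed without Al-alone array 3 and with an offset of 32 before log2. GLB3, a haemoglobin, failed without Al-alone array 1, without array 3 with Mg and in the blocked fit of the 6 arrays, the setting that also ended the calls of HAD1 and GLYI-20.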

How the data were processed

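The authors deposited 1 intensity for each probe set on each array, on a linear scale. How background and scaling were treated is not given in the sources used here. Precision is limited by the number of arrays and, for dim probe sets, by background. Values below 1 were set to 1 and log2 taken. Groups followed the labels. No label tells whether replicates came from different plants, and the p-values cover no more than variation among arrays.

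Group means of all 8 groups (24 arrays, 16 residual and 1.13 prior degrees of freedom) were fitted with limma 3.58.1 under R 4.3.3 to the 37593 Gma probe sets, with Benjamini-Hochberg adjustment and a threshold of 0.05. The background bound of an array was the 99th percentile of 23394 probe sets for other organisms, soybean ribosomal RNA left out. Where a whole group was at or under it, the fold is printed with "at least". Where part of a group was, those arrays were set to the bound and the difference is printed with "or lower".

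The platform table and the gene names of Glycine_max_v4.0 gave 1 gene to 8677 probe sets, several to 370 and none to 28546, in all 6031 genes, each read by its brightest probe set. Genes named in the text were the 20 top rises and the 20 top falls with groups that did not overlap, up to 4 passing members per direction from each of 40 lists, the whole Al list, 8 genotype differences per direction and, for a list with none passing, its 2 brightest genes. CHIA1, OLPa, OLPb, NAC34, NAC109, NAC19, SERK1, CRK11, CRK5 and GASA9 fell outside and were named after their values were seen. The members and lists were chosen with earlier results of these data known.

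Alternatives were a 2-fold limit, a signal filter at the 95th percentile of other organisms' means (2.3965, 33117 probe sets), all probe sets but controls, equal array medians, quantile normalization, an offset of 32, a trend with robust variance, the compared arrays alone, the replicate number as a block, and each array left out. The compared arrays alone with the block were added after seeing the data. In simulated arrays the procedure recovered 28.8% of 66 probe sets changed by 0.5, 76.1% of 67 changed by 1 and 92.5% of 67 changed by 2 on the log2 scale in the simulated Mg effect in Young at 72 h, out of 37593, and called 0.00802% of the unchanged. Noise was independent and normal, and the changed probe sets were drawn from those more than 2 log2 units above the signal filter. Far fewer were changed than the 39.3% that passed in the data. These rates therefore do not carry over to the real comparison or to dim probe sets.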

Additional observations from a re-analysis of the deposited data

Results flagged for a closer look

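Some Mg effects in Young at 72 h differed from the effects in other conditions. The effect differed between Young and PI at 72 h for 544 probe sets and between 72 h and 12 h in Young for 13217. Among named genes the effect was more negative in Young than in PI for SABATH2 (−7.85 on the log2 scale), WRKY63 (−3.24), KR3 (−2.28), WRKY40 (−2.13), EN2 (−2.09), CYP71A9 (−2.01), PARP3 (−1.46) and PM35 (−1.42). It was more positive for SGlu2 (0.60), BZIP28 (0.60), MIPS (0.71), XTH1 (0.71), BZIP110 (0.75), SLR1 (0.79), PIB1 (1.03) and WRKY32 (1.19). The difference of WRKY63 passed under 7 of 20 alternatives, EN2 under 7, CYP71A9 under 6, MIPS under 4, XTH1 under 12, BZIP110 under 8 and WRKY32 under 5. In each of these 7 genes leaving out any single array of Young with Mg ended the call. The values for SABATH2, WRKY63, KR3, WRKY40, CYP71A9 and PARP3 are fitted against groups with arrays at background and are not measured sizes. With an offset of 32 before log2 they were −6.09, −1.99, −1.51, −0.56, −0.55 and −0.85, and PM35, a dim gene, was at −0.46.

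The array also carries probe sets for the oomycete Phytophthora sojae and the nematode Heterodera glycines, which no comparison above used as measurements. Of these, 173 lay above the bound on all 6 arrays, against a bound that 1 in 100 of them exceeds by its construction, and 131 passed in a fit over all probe sets but controls. By organism, 87 of 15864 for the oomycete passed (0.548%) and 44 of 7530 for the nematode (0.584%).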

How the results depend on the processing

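The number of probe sets changed in Young at 72 h, 14788, stayed within 1.5 times of itself under every alternative but the 2-fold limit, which gave 5726. Leaving out 1 array gave 12176 (Al-alone array 2) to 14241. The replicate block gave 14491, the 6 arrays alone with the block 9959, and quantile normalization 15910. Scaling moved the median of all probe sets from 0.03 to 0.07 (quantile) or 0.08 (equal medians). For the difference between genotypes, 544, the 2-fold limit gave 321, the compared arrays alone 221, the block 426 and leaving out an array 301 to 673. For the difference between times, 13217, they gave 7319, 12845 for the block, and 11017 to 14257. Numbers shared by replicates were not taken to pair arrays, since deviations of same-numbered arrays correlated at −0.132, −0.057 and 0.26, and not every array correlated best with its own number. GLYI-23 reversed under quantile normalization, to 0.01. Of 247 named genes that passed, 172 did so with the same sign under all 15 alternatives. The cause of these shifts was not tested, apart from the smaller number of arrays or the stricter limit. Signal near background limits falls to bounds.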

Other observations

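Proteases and their inhibitors, not described above, numbered 6 lower and 4 higher of 19, and the higher ones numbered 2 without Al-alone array 1 or 2 or without array 1 or 2 with Mg. Of the members that passed, 1 was at background on all 6 arrays. The rise of BBI passed under 5 of 14 alternatives, at 0.01 to 0.12. BBI-1, a Bowman-Birk inhibitor of serine proteases, had 12.55, 12.49 and 12.13 with Al alone and 8.79, 8.47 and 8.90 with Mg, a fall of 3.67 (limma adjusted p = 2.00e-08). CP3, a cysteine protease, had 8.86, 8.63 and 9.0 against 10.65, 10.05 and 10.75 and rose by 1.66 (adjusted p = 2.62e-05). The groups of neither gene overlapped. CYSTATIN, an inhibitor of cysteine proteases, fell by 1.18 (adjusted p = 0.000237).

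MAP kinases and 14-3-3 proteins were 7 higher and 4 lower of 16, the lower ones 2 without Al-alone array 2. GF14B, a 14-3-3 protein, had 12.61, 12.42 and 12.49 against 13.14, 13.05 and 13.26 and rose by 0.64 (adjusted p = 3.41e-07), and SGF14M, of the same family, fell by 0.41 (adjusted p = 3.03e-05). MAPKK2 and OAS-TL1 had probe sets that passed in opposite directions.

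Of 33 other transcription factors 10 rose (30.3%) and 6 fell (18.2%), but 2 of those that passed were at background on all 6 arrays. Of 12 sulfur assimilation genes 4 rose (33.3%) and 3 fell (25%), and of 8 brassinosteroid and cytokinin genes 2 rose (25%) and 1 fell (12.5%). Over all tested probe sets 23.1% were higher and 16.3% lower. The sulfur rises numbered 2 without array 1 with Mg or without Al-alone array 1 or 2. The fall in the hormone list did not pass without any single array with Mg or without Al-alone array 1.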
